A study of Mus musculus with 10 samples.

Results

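CD206hi tumor-associated macrophages (TAMs) from wild-type (WT) mice were compared with the breast tumor cells sorted from tumors of WT hosts. The members are the 3 arrays of WT TAMs and the 2 arrays of WT-host tumor cells, chosen by their titles, which make 5 of the 10 arrays in the series. The tumor cells were PyMT-BO1-GFP-Luc, a mouse mammary tumor line that carries a green fluorescent protein and a luciferase; 100000 of them were placed in the mammary fat pad, and both cell populations were sorted by flow cytometry on day 10 and lysed without culture. The other 5 arrays held the same cell types (3 TAM and 2 tumor cell arrays) from b3KOM mice, whose macrophage-lineage cells lack the integrin beta3 gene; the tumor cells injected into both hosts were the same line. The labels do not give the age of the mice, the driver of the deletion or how many mice went into an array, so the p-values measure the spread between arrays, which may be technical.

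Tumor-associated macrophages derive largely from blood monocytes that enter the tumor, and they depend on colony-stimulating factor 1 signaling. They take up debris and antibody-coated cells, produce complement and chemokines, present antigen on MHC class II, and can promote or restrain tumor growth. The mannose receptor CD206 is found at the surface of macrophages of the alternatively activated kind and serves to sort them. PyMT tumor cells are epithelial in origin and were transformed by the polyoma middle T antigen.

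Values are log2 levels as the authors deposited them, and a difference is the WT TAM mean minus the WT tumor cell mean in log2 units, so that a difference of 1 is 2-fold. Gene names were available for 251 of the 35556 probesets, those in the authors' 2 deposited gene tables; the authors had chosen these for a difference between WT and b3KOM on these same arrays, so the named genes are no random sample of the array. Of the 251, 172 were above the median of the value table (4.19) on at least 2 arrays and were tested; the other 79 had no WT array above 4.22. Mrc1 (CD206) and Itgb3 are not among the named genes and were not analysed here.

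The 2 cell types were far apart. Pearson correlations between arrays over all 35556 probesets were 0.982 to 0.985 within the WT TAMs, 0.992 between the 2 tumor cell arrays, and 0.909 to 0.919 between the cell types. Of 20246 probesets tested, 11279 (55.7%) passed an adjusted p of 0.05 (limma, Benjamini-Hochberg), 4166 (20.6%) higher in TAMs and 7113 (35.1%) higher in tumor cells. With a difference of at least 2-fold as well, 5322 (26.3%) were called, of which 2320 (11.5%) were higher in TAMs and 3002 (14.8%) in tumor cells. Without the probesets of an ID below the lowest named one, 3812 of 17015 passed the adjusted p higher in TAMs and 6826 in tumor cells. The shares over all probesets tested, used below for comparison, thus depend on which probesets are tested. The split depended on the scaling: after cyclic loess scaling of the arrays, 51.4% of the calls were higher in TAMs against 36.9% as deposited, and 56.0% of the 2-fold calls against 43.6%, with the median difference of all probesets moving from -0.15 to 0.03. Large differences lay mostly on the macrophage side under the deposited scaling: 350 probesets were at least 4 log2 units higher in TAMs and 60 in tumor cells, and at 5 log2 units the counts were 143 and 2.

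Among the 172 named probesets tested, 78 were called higher in TAMs, 52 higher in tumor cells and 42 were not called; at 2-fold the counts were 71 and 34. Their median difference was 0.36, beside -0.15 over all probesets tested. The arrays of the 2 cell types did not overlap for 86 named probesets with TAMs above and 59 with tumor cells above, beside 27.3% and 44.5% of all probesets tested (71.9% in either direction).

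**Figure D1:**
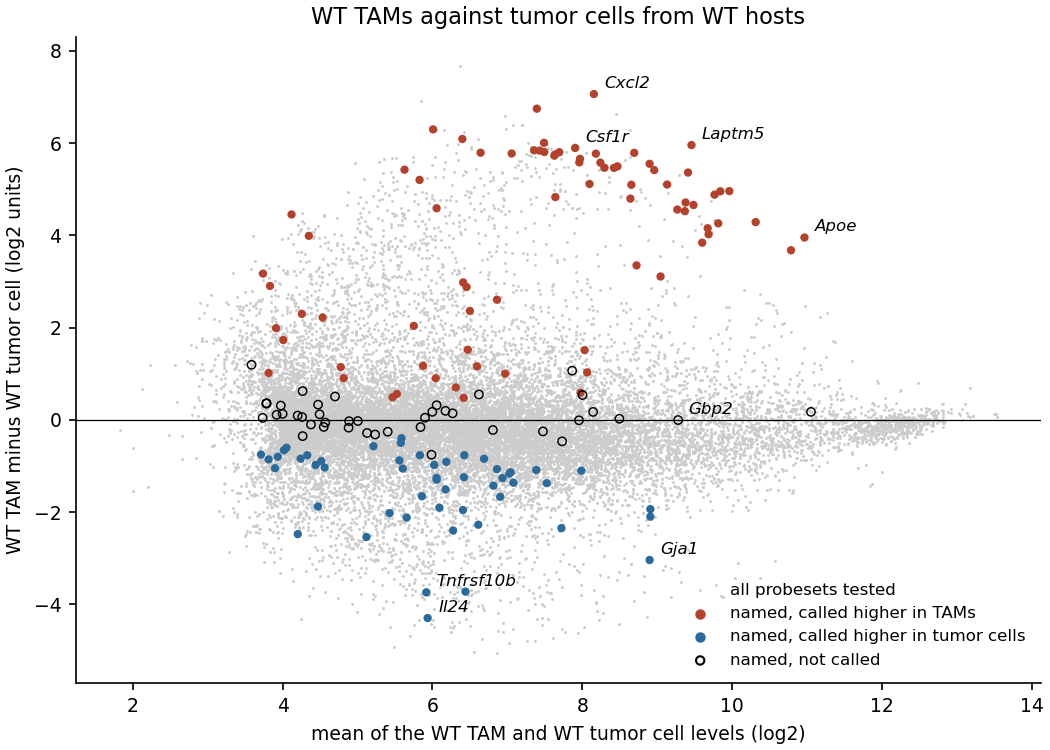
Difference between WT TAMs and WT-host tumor cells (vertical, log2 units) against the mean of the 2 group levels (horizontal, log2), 1 point per probeset tested. Named probesets called higher in TAMs (78) reach 7.06 for Cxcl2, those called higher in tumor cells (52) reach -4.30 for Il24, whose TAM arrays lie below the table median, and open circles are the 42 named probesets not called.

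Levels come first for 5 genes set as markers, Csf1r, Itgam and Laptm5 for the macrophages and Il24 and Gja1 for the tumor cells. Csf1r, the receptor for colony-stimulating factor 1, stood at 10.92, 10.78 and 10.86 on the WT TAM arrays and at 4.98 and 4.94 on the tumor cell arrays. Itgam, the integrin alpha M chain (CD11b) of myeloid cells, stood at 10.29, 10.26 and 10.50 in TAMs and at 4.58 and 4.45 in tumor cells. Laptm5, a lysosomal membrane protein of hematopoietic cells, stood at 12.45, 12.46 and 12.40 in TAMs and at 6.48 on both tumor cell arrays. For these 3 genes every TAM array lay far above both tumor cell arrays, while 27.3% of all probesets tested had every TAM array above both by any amount. The differences were 5.89 ± 0.09 (SE) for Csf1r, 5.84 ± 0.11 for Itgam and 5.96 ± 0.10 for Laptm5, with limma adjusted p of 4.11e-09, 4.65e-09 and 4.11e-09.

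Gja1, the gap junction protein connexin 43, was on the opposite side, at 7.45, 7.46 and 7.22 in TAMs and 10.49 and 10.35 in tumor cells. Il24, a cytokine of the interleukin 10 family, stood at 3.52, 3.97 and 3.88 in TAMs, all below the table median, and at 8.16 and 8.01 in tumor cells. Neither gene's arrays overlapped between cell types, which holds with tumor cells above for 44.5% of all probesets tested. The differences of Gja1 and Il24 were -3.04 ± 0.11 (limma adjusted p = 7.68e-08) and -4.30 ± 0.20 (limma adjusted p = 4.95e-07). With the TAM level of Il24 raised to the table median its difference is -3.90. All 5 marker genes thus differed in the direction set for them. They were named from gene tables made on these same arrays and chosen with earlier results known, so this is no check of the labels. Gja1 was also high in TAMs, above the 75th percentile of the value table (6.5) on every WT TAM array.

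Promoter sequences are shown for Itgam and Laptm5, which were higher in the macrophages, and for Gja1, which was higher in the tumor cells. Each is the 250 bases before the RefSeq transcription start on GRCm38.p6, plus strand, at chr7:128062390-128062639, chr4:130913066-130913315 and chr10:56377050-56377299. Capitals mark matches to the motifs searched.
Itgam: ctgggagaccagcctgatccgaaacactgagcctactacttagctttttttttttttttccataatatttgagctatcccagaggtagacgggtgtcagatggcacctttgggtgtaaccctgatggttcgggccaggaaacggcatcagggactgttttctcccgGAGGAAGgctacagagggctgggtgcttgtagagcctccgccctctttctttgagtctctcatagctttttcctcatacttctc
Laptm5: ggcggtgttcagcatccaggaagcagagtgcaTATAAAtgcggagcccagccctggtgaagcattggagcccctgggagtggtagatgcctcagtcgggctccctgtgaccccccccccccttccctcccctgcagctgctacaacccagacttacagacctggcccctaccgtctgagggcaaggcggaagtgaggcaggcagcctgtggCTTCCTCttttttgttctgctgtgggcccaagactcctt
Gja1: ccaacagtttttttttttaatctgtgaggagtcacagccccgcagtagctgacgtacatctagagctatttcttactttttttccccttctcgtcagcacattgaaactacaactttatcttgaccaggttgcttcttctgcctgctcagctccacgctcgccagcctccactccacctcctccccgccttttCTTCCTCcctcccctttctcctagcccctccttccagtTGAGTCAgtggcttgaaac

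PU.1 is an ETS-family transcription factor of myeloid cells, and the motif searched for it was GAGGAAG on either strand. It lies 84 bases before the start of Itgam, and on the other strand (CTTCCTC) 39 bases before that of Laptm5 and 57 bases before that of Gja1, so it is not confined to the macrophage genes shown. Over the named genes at least 2 log2 units higher in TAMs, 17 of 47 promoters (36.2%) of 40 genes held it within 250 bases before to 50 after the start, beside 13.6% of all 32851 promoters in the table. The AP-1 motif TGANTCA was in 19.1% of them beside 7.8%, the NF-kB motif GGGANTTCC in 6.4% beside 1.7%, the TATA box TATAAA in 23.4% beside 13.6%, and the E-box CACGTG in 2.1% beside 7.2%. For the genes at least 2 log2 units higher in tumor cells, 15 promoters of 10 genes, the shares were 13.3%, 6.7%, 6.7%, 0.0% and 6.7% in the same order. Near-identical copies such as the Bcl2a1 genes were counted separately, and these matches describe letters, not binding.

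All 16 tested members of the macrophage identity list were called higher in TAMs at over 2-fold, with a median of 5.16. Beside this stand 11.5% of all probesets tested and 71 of the 172 named ones, from which the members come. Clec5a, a lectin receptor of myeloid cells, had the largest of these differences at 6.30 ± 0.12, with 9.28, 9.03 and 9.16 in TAMs and 2.79 and 2.93 in tumor cells. Because both tumor cell arrays lay below the table median, its difference is at least 4.97 when the tumor level is raised to that median. F13a1, the A subunit of clotting factor XIII, was 5.81 ± 0.14 higher. Cd68, a lysosomal glycoprotein of macrophages, stood at 11.66, 11.64 and 11.72 in TAMs and 6.13 and 6.12 in tumor cells. The limma adjusted p was 5.58e-09 for Clec5a, 1.02e-08 for F13a1 and 4.59e-09 for Cd68.

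Most of the macrophage genes were above the table median in the tumor cell arrays. Of the 16 list members, 14 had a tumor cell mean above it, the others being Clec5a and Ccr2. Over all probesets called 2-fold higher in TAMs, 44.2% had a tumor cell mean under it. The mean over the list was 5.93 and 5.91 on the WT tumor cell arrays, 6.51 and 6.58 on the b3KOM ones and 11.05 to 11.15 on the WT TAM arrays. Names exist only for probesets that the authors chose for a genotype difference. Of the 71 named probesets called 2-fold higher in TAMs, 46 were chosen as higher in b3KOM tumor cells. The higher list mean on the b3KOM tumor cell arrays is therefore no independent result. The part of macrophage RNA in these tumor cell levels was not tested. In sorted bulk samples, fewer cells of a type and less RNA per cell cannot be told apart.

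Of the immune receptors and their signaling partners, 8 of 8 tested were called higher in TAMs, with a median of 5.81, beside 20.6% of all probesets tested and 78 of the 172 named ones. Sla, an adaptor that lowers antigen receptor signaling, was 6.09 ± 0.12 higher (limma adjusted p = 6.63e-09) and Pilra, an inhibitory receptor, 5.77 ± 0.13 (9.44e-09) and at least 5.76 against the table median. Sirpb1a, a receptor of the signal-regulatory protein family, stood at 10.54, 10.38 and 10.56 in TAMs and at 4.37 and 4.61 in tumor cells. Fcgr3, a low-affinity receptor for IgG, stood at 11.61, 11.64 and 11.76 in TAMs and at 6.30 and 6.21 in tumor cells. For Sla both tumor cell arrays, at 3.42 and 3.29, lay below the table median, which leaves a difference of at least 5.26.

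Complement genes were called higher in TAMs in 5 of 5, beside 20.6% of all probesets tested and 78 of the 172 named ones. Itgam, a marker gene above, is among them. C1qa, C1qb and C1qc encode the chains of C1q, the recognition molecule of the classical pathway, and were 5.10 ± 0.08, 5.36 ± 0.10 and 4.96 ± 0.11 higher in TAMs. C1qb stood at 12.07, 12.14 and 12.07 in TAMs and at 6.83 and 6.63 in tumor cells. C3ar1, the receptor for the fragment C3a, was 5.49 ± 0.10 higher. The limma adjusted p of these 4 genes lay between 4.11e-09 and 7.9e-09.

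MHC class II genes were called higher in TAMs in 6 of 6, beside 20.6% of all probesets tested and 78 of the 172 named ones, with a median of 5.23. Cd74, the invariant chain that escorts class II molecules, stood at 11.42, 11.48 and 11.86 in TAMs and at 5.82 and 5.77 in tumor cells, a difference of 5.79 ± 0.19 (limma adjusted p = 4.76e-08). H2-Eb1, a class II beta chain, was 5.77 ± 0.27 higher (4.47e-07), and H2-DMa, which helps load peptides, 5.66 ± 0.13 (8.29e-09). H2-Ab1 and H2-Aa, the chains of I-A, were 4.80 ± 0.20 and 4.56 ± 0.17 higher. The third WT TAM array was the highest of the 3 for Cd74, H2-Eb1, H2-Ab1 and H2-Aa.

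**Figure D2:**
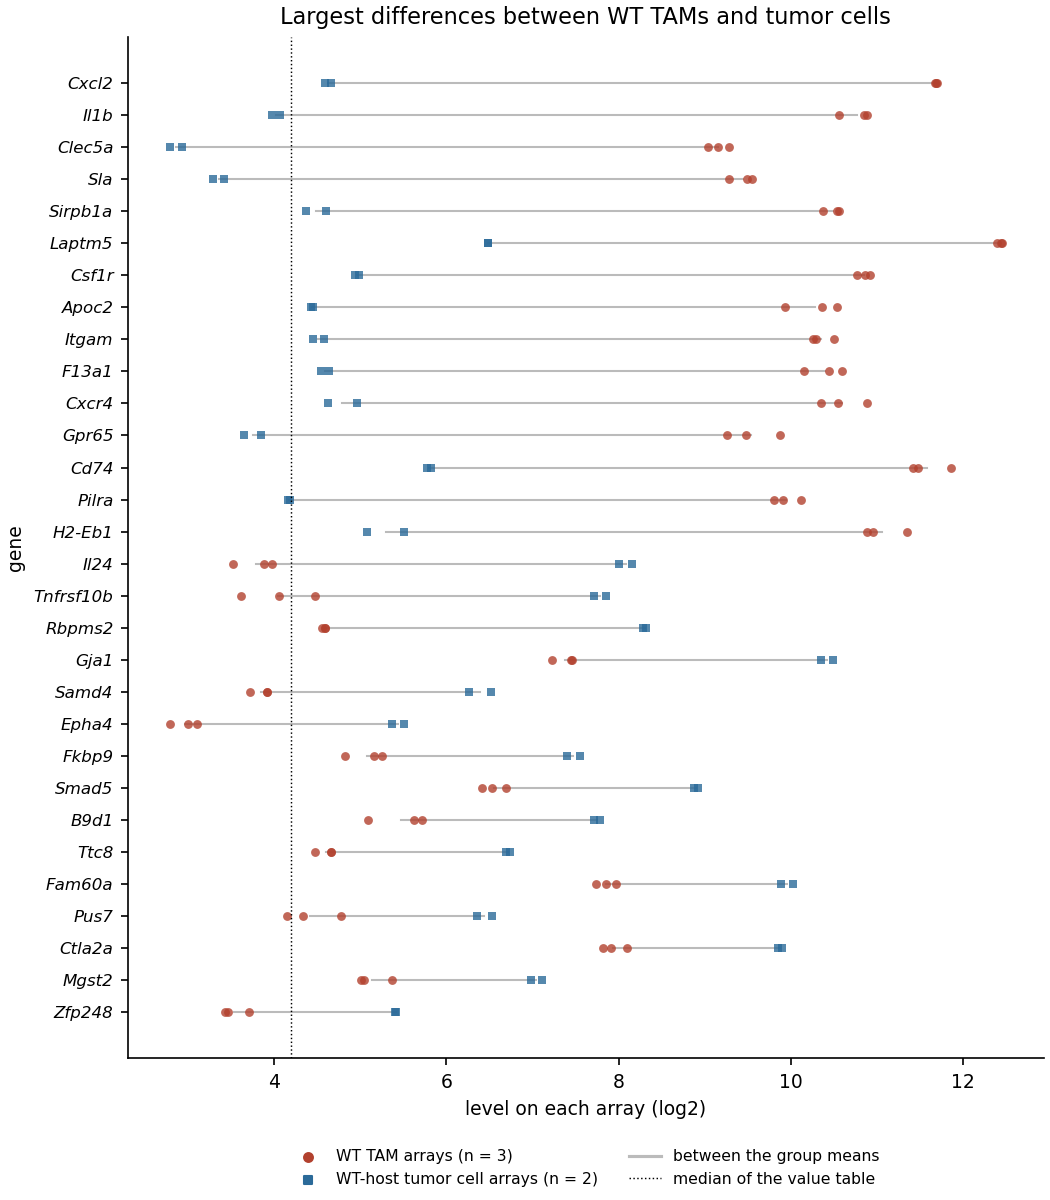
Level on each WT array (horizontal, log2) for the 15 named genes with the largest differences in each direction; circles are the 3 WT TAM arrays, squares the 2 WT-host tumor cell arrays, lines join the group means and the dotted line is the table median (4.19). The cell types do not overlap for any of the 30 genes, which were chosen for not overlapping.

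Secreted signals held the largest named difference. Cxcl2, a chemokine that attracts neutrophils, stood at 11.67, 11.68 and 11.70 in TAMs and at 4.59 and 4.66 in tumor cells, a difference of 7.06 ± 0.10 (limma adjusted p = 4.11e-09) or 134.0-fold. Il1b, the inflammatory cytokine interleukin 1 beta, stood at 10.89, 10.56 and 10.86 against 4.07 and 3.97, a difference of 6.75 ± 0.12 and of at least 6.58 against the table median. Pf4, platelet factor 4, and Ccl8, a chemokine for monocytes, were 4.66 ± 0.09 and 3.84 ± 0.17 higher in TAMs. Of the 7 chemokines and cytokines tested, 6 were called higher in TAMs and Il24 alone was called higher in tumor cells. Beside this stand 20.6% and 35.1% of all probesets tested, and 78 and 52 of the 172 named ones.

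The receptors for such signals divided. Cxcr4, the receptor for CXCL12, was 5.80 ± 0.23 higher in TAMs (limma adjusted p = 1.78e-07), Gpr65, a proton-sensing receptor, 5.79 ± 0.21 (1.05e-07), and Ccr2, the monocyte receptor for CCL2, 5.20 ± 0.20 (1.72e-07). Ccr2 stood at 8.29, 8.30 and 8.70 in TAMs and at 3.10 and 3.35 in tumor cells. Both tumor cell arrays lay below the table median for Ccr2 and Gpr65, which leaves differences of at least 4.24 and 5.35. Cxcr3, known from activated T cells, was higher in tumor cells, at 6.60 and 6.42 against 5.44, 5.26 and 5.90 in TAMs, a difference of -0.98 ± 0.17 (limma adjusted p = 0.00134). F2rl3, a thrombin receptor, was -0.84 ± 0.22 (0.00988), or -0.48 with its TAM level raised to the table median, and its call was lost without the second tumor cell array, at an adjusted p of 0.0816 and a difference of -0.69.

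Genes of alternative activation and of lipid handling were called higher in TAMs in 4 of 4 and 3 of 3 tested. Beside this stand 20.6% of all probesets tested and 78 of the 172 named ones. Arg1, which splits arginine, stood at 11.22, 11.11 and 10.75 in TAMs and at 5.20 and 5.71 in tumor cells, a difference of 5.58 ± 0.18 (limma adjusted p = 5.06e-08). Mgl2, a galactose-type lectin of macrophages, was 5.42 ± 0.26 higher and at least 4.15 higher against the table median. F13a1 and Ccl8 are the other members of the alternative activation list. Apoe and Apoc2, apolipoproteins, were 3.95 ± 0.10 and 5.84 ± 0.16 higher. Apoc1 stood at 5.72, 4.71 and 5.79 in TAMs and 3.01 and 3.20 in tumor cells, with the second TAM array below the other 2 and a difference of at least 1.22 against the table median. In the heme, metal and oxidative stress list, 2 of 5 tested were called higher in TAMs and 2 in tumor cells. For comparison, 20.6% and 35.1% of all probesets tested were called so, and 78 and 52 of the 172 named ones. The list had 1 gene not called and a median of 0.17. Of those higher in TAMs, Slc30a1 was at 0.48, and its call was lost without the first tumor cell array. Hmox1, which degrades heme, was 5.10 ± 0.19 higher (limma adjusted p = 1.18e-07), and Mgst2, a microsomal glutathione transferase, differed by -1.90 ± 0.20 (5.44e-05). Mt2, a metallothionein, had nearly the same level in both, 11.14 ± 0.12 (SD, n = 3) and 10.97 ± 0.05 (SD, n = 2), with a limma adjusted p of 0.292.

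Bcl2a1a, Bcl2a1b and Bcl2a1d, near-identical copies of an anti-apoptotic gene whose probesets may share signal, were 4.15 ± 0.08, 4.52 ± 0.09 and 4.02 ± 0.08 higher in TAMs. Tnfrsf10b, the death receptor for TRAIL, went the other way, at 3.62, 4.48 and 4.05 in TAMs and 7.72 and 7.86 in tumor cells, a difference of -3.74 ± 0.22 (limma adjusted p = 1.79e-06), or -3.60 with the TAM level raised to the table median.

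Interferon response genes split within the list. Of 13 tested, 8 were called higher in TAMs, 0 higher in tumor cells and 5 were not called, with a median of 1.52. Called in each direction were 20.6% and 35.1% of all probesets tested, and 78 and 52 of the 172 named ones. Cxcl10 and Cxcl9, interferon-induced chemokines, were 3.35 ± 0.28 (limma adjusted p = 1.43e-05) and 3.11 ± 0.52 (0.00103) higher. Mpa2l, a guanylate-binding protein now named Gbp6, was 2.98 ± 0.37 higher, and Cd274, the checkpoint ligand PD-L1, stood at 8.01, 7.93 and 8.55 in TAMs against 5.57 and 5.54.

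The 5 that were not called are interferon-inducible GTPases. Gbp2 had a mean of 9.28 in both cell types, with 9.04, 8.98 and 9.81 in TAMs around 9.33 and 9.24 in tumor cells. Tgtp1 stood at 7.92, 8.33 and 9.27 in TAMs and 8.53 and 8.44 in tumor cells. Iigp1, at a difference of 1.07, Irgm2, at 0.54, and Irgm1, at 0.17, were the others. For Gbp2, Tgtp1, Cxcl9, Cd274 and Mpa2l the third WT TAM array was the highest, and for Gbp2 and Tgtp1 the other 2 TAM arrays lay below both tumor cell arrays. Without it Tgtp1 turned to -0.36. With an SE of 0.48 for Gbp2 and 0.51 for Tgtp1, differences of that size would not be called. Larger ones would also be missed, up to a limit not determined here, and Iigp1 was not called at 1.07.

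**Figure D3:**
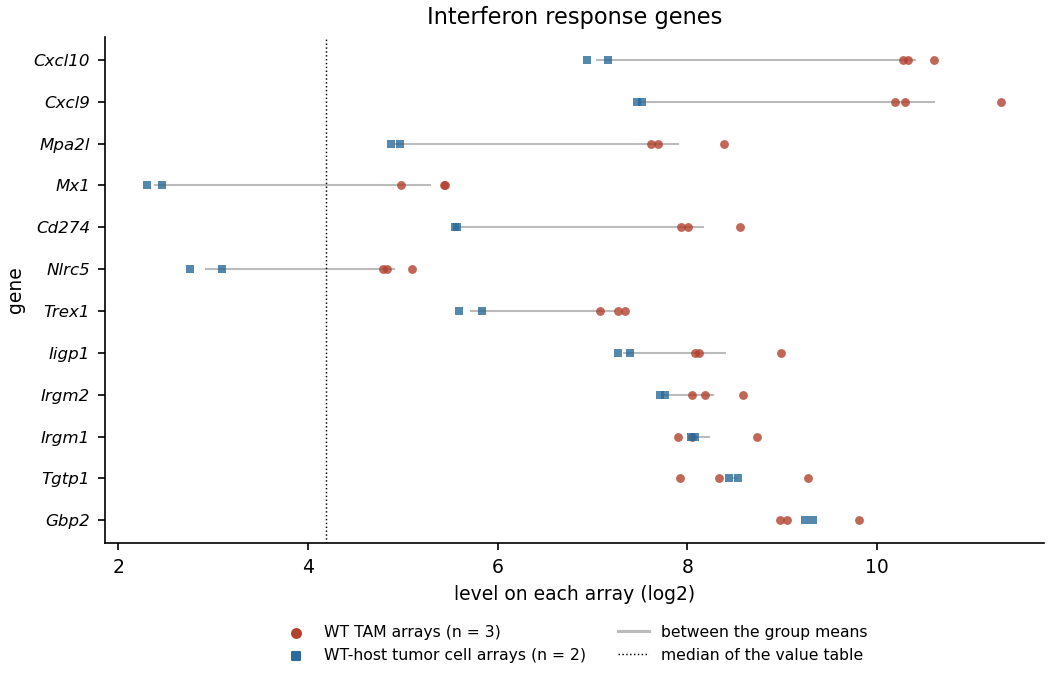
Level on each WT array (horizontal, log2) for the interferon response genes shown, ordered by difference; circles are the 3 WT TAM arrays, squares the 2 tumor cell arrays, lines join the group means and the dotted line is the table median. The arrays of Cxcl10, Cxcl9, Mpa2l and Cd274 separate the cell types, while the TAM arrays of Tgtp1 and Gbp2 lie on both sides of the tumor cell arrays.

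Over all 2-fold calls the median difference was -1.49 on the tumor cell side and 1.93 on the macrophage side. Over the named ones, which the authors selected, it was -1.66 (34 probesets) and 4.80 (71 probesets, of which 46 are in the authors' tumor cell table as higher in b3KOM). All 5 tested members of the epithelial and mammary tumor list were called higher in tumor cells. This was so for 35.1% of all probesets tested and 52 of the 172 named ones. Besides Il24 and Gja1 the members were Epha4, an ephrin receptor kinase, at -2.48 ± 0.21 (-1.26 with its TAM level, below the table median, raised to it), Sox4, a transcription factor of progenitor cells, at -1.30 ± 0.10, and Glycam1, a mucin-like protein of milk and lymph node vessels, at -0.75 ± 0.19. Glycam1 stood at 3.78 and 4.40 in tumor cells and at 3.51, 3.30 and 3.19 in TAMs, both means below the table median, and its call was lost without the second tumor cell array, at an adjusted p of 0.0788 and a difference of -0.44.

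Of 3 tested genes of the RNA-binding list, 3 were called higher in tumor cells, beside 35.1% of all probesets tested and 52 of the 172 named ones. Rbpms2 stood at 8.32 and 8.28 in tumor cells and at 4.60, 4.55 and 4.59 in TAMs, a difference of -3.72 ± 0.10 (limma adjusted p = 1.45e-08). Samd4, a translational repressor, was -2.54 ± 0.11 (3.55e-07; -2.20 with the TAM level raised to the table median), and Taf1d, a subunit of the RNA polymerase I factor SL1, -0.77 ± 0.23 (0.0199), a call lost without the first tumor cell array, at a difference of -0.55, and with cyclic loess scaling, at -0.54. Pus7, a pseudouridine synthase, was -2.02 ± 0.22.

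Smad5, a mediator of BMP signals, stood at 8.92 and 8.87 in tumor cells and at 6.53, 6.70 and 6.42 in TAMs. Fkbp9, a prolyl isomerase of the endoplasmic reticulum, differed by -2.40 ± 0.14, and Ccne2, the S-phase cyclin E2, by -1.43 ± 0.14. Of 4 tested genes of the primary cilium, 3 were called higher in tumor cells, beside 35.1% of all probesets tested and 52 of the 172 named ones. The 3 were B9d1, of the ciliary transition zone, at -2.27 ± 0.23, Ttc8, of the BBSome, at -2.12 ± 0.11, and Rsph9, a radial spoke protein, at -1.05 ± 0.24. The TAM mean of Rsph9, 3.38, lay below the table median, and raised to it leaves a difference of -0.24. B9d2, a partner of B9d1, was 1.17 ± 0.10 higher in TAMs. Ctla2a, which resembles a cathepsin propeptide and is known from activated T cells, was -1.94 ± 0.13, while its relative Ctla2b was 0.59 ± 0.15, a call lost without the first tumor cell array at 0.50 (limma adjusted p = 0.0745). The 2 named lymphocyte genes, Cxcr3 and Ctla2a, averaged 8.25 and 8.14 on the tumor cell arrays and 6.63 to 6.91 on the WT TAM arrays. No neutrophil, mast cell or adipocyte gene of the lists was named.

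**Figure D4:**
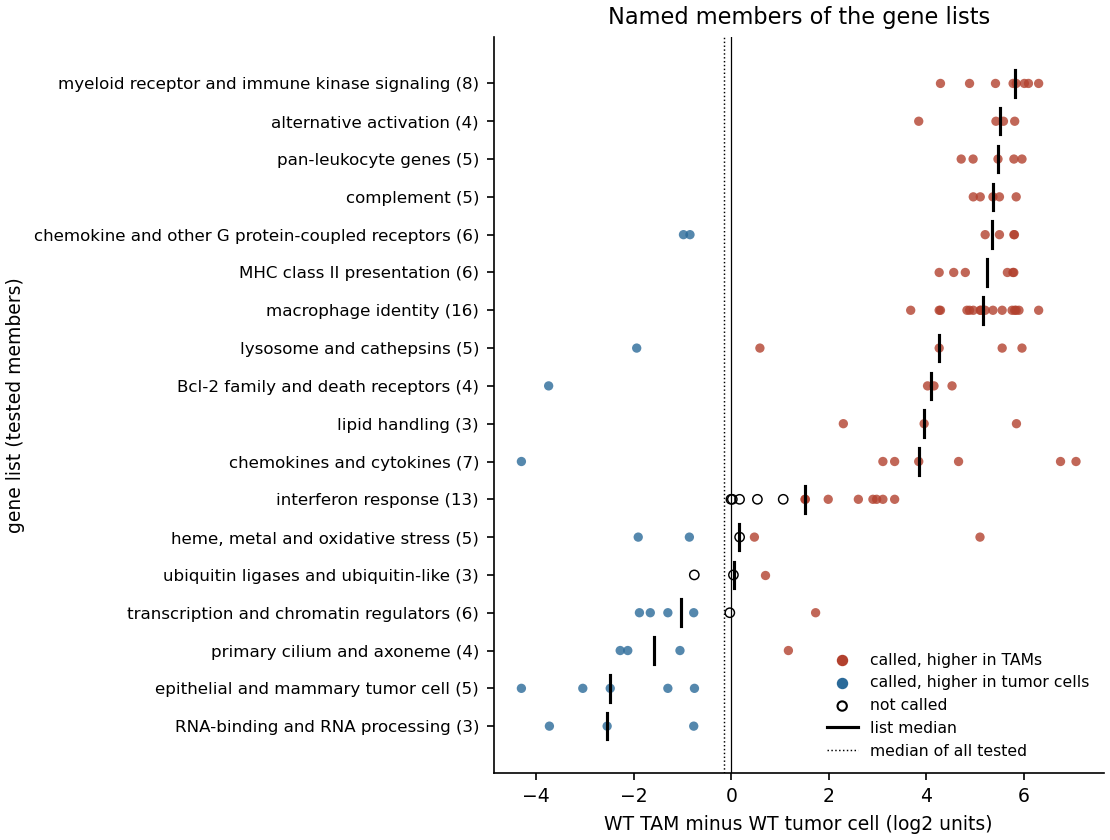
Differences between WT TAMs and tumor cells (horizontal, log2 units) for the tested named members of each gene list, with the number tested in brackets; filled points were called, open points were not, black bars are list medians and the dotted line is the median of all probesets tested (-0.15). The macrophage identity and myeloid receptor lists lie to the right, with medians of 5.16 and 5.81, and the epithelial and RNA-binding lists to the left.

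Nearly the same level in both cell types, above the table median on all 5 WT arrays, was measured for 8 genes chosen for it, namely Gbp2, Tgtp1, Uxt, Phf15 (now Jade2), Zfp341, Zfp658, Fbxw17 and Cd1d1. Uxt, a prefoldin-like protein, stood at 7.93, 8.04 and 7.89 in TAMs and 7.89 and 8.03 in tumor cells. The sign of each of these differences turned in at least 1 alternative, so none has a direction.

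The same contrast in b3KOM hosts uses 5 other arrays. It called 10987 probesets (54.3%), 20.2% of all tested higher in TAMs and 34.1% higher in tumor cells, and 25.2% at 2-fold (11.1% and 14.1%). Of the WT 2-fold calls, 86.9% of those higher in TAMs and 84.6% of those higher in tumor cells were also 2-fold calls in b3KOM, which are 89.3% and 88.9% of the b3KOM calls. Of the named 2-fold calls, 66 of 71 and 23 of 34 were also called so in b3KOM, and 71 and 33 had the same sign there. The difference of Csf1r was 5.89 in WT and 5.45 in b3KOM hosts, that of Cxcl2 7.06 and 5.77, and that of Gja1 -3.04 and -2.64. The test of the difference between the 2 contrasts called 0 of 20246 probesets in limma; before adjustment 736 had a p under 0.05, and the smallest adjusted p was 0.186. Under a stricter filter it called Cxcl2 and Pf4, and with an intensity trend and robust fitting 11. All of these calls were named probesets with the larger difference in WT hosts. The marker gene Laptm5 was among the 11, at 0.79 (limma adjusted p = 0.0486). The names were chosen for a genotype difference, so these calls and the differences of named genes are not independent of it.

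**Figure D5:**
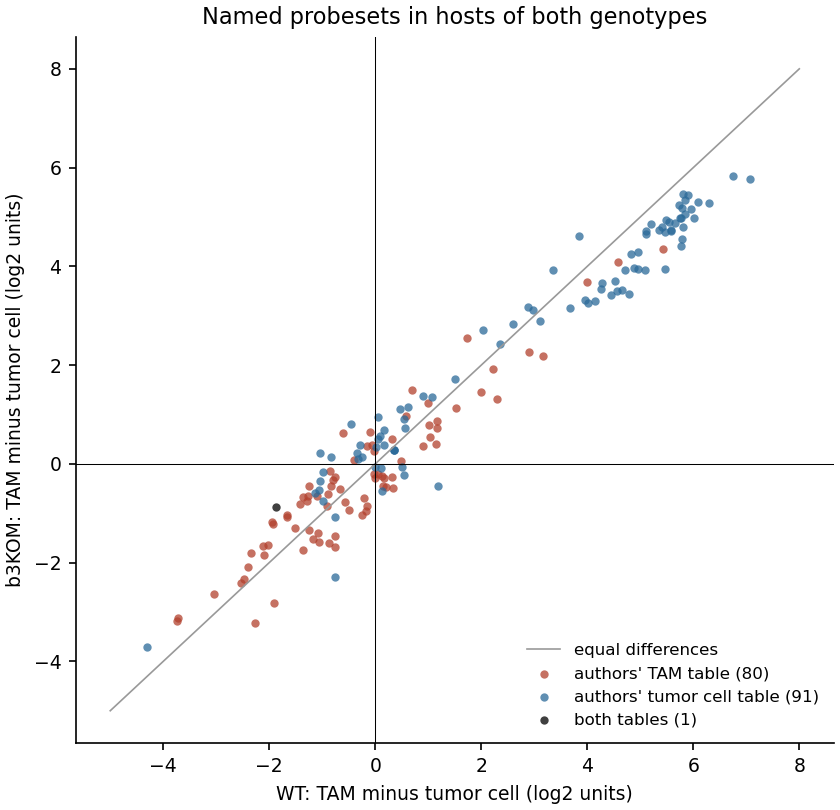
Difference between TAMs and tumor cells in b3KOM hosts (vertical) against WT hosts (horizontal), both in log2 units, for the 172 named probesets tested, colored by the authors' table that names them; the line marks equal differences. Most of the points with large positive differences lie below the line, as Cxcl2 does with 7.06 and 5.77. The named probesets were chosen for a genotype difference, many of them as higher in b3KOM tumor cells, which lowers their b3KOM difference. Over all probesets tested the median difference was -0.15 in both hosts.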

How the data were processed

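Total RNA (50 ng) of sorted cells was amplified, labelled with biotin and hybridised to Affymetrix arrays, per the labels' protocols; the values are log2 levels that the authors deposited after Affymetrix Expression Console and RMA, per the submitters' processing notes, with versions and array model not given in the sources used here. RMA scales all arrays to one distribution (array medians 4.13 to 4.22), so a change in total RNA is not visible. The 2 gene tables that the authors deposited also hold log2 fold changes, a moderated t score and unadjusted p-values between genotypes, made by steps not given in the sources used here; only their IDs, names and direction were used. Probesets above the table median on at least 2 arrays were fitted with limma 3.58.1 in R 4.3.3, with 1 mean for each of 4 groups on all 10 arrays, and p-values were adjusted by Benjamini-Hochberg over 20246 probesets. The fit shares 1 spread per probeset among groups, while the median SD between arrays was 0.172 in WT TAMs and 0.0851 in WT tumor cells. The first simulated setting drew each group's spread from its own 2 or 3 arrays. There the rate of false calls was far above the intended one, less so when only the 5 WT arrays were fitted. The other settings were added after that result was seen. Among them the fit of 10 arrays kept about the intended rate where the groups shared a spread per probeset. This held also where that spread was multiplied by a factor for each group. It exceeded the rate where each group kept its own measured spread of each probeset. Where the groups shared a moderated spread, the fit of 5 arrays was the one above the intended rate. Adjusted p-values of probesets whose spread differs between groups may thus be too small, and the fit of 5 arrays is among the alternatives. The number of arrays limits the precision. With 10 arrangements of 3 against 2 arrays, an exact rank-sum test cannot go below a two-sided p of 0.2. Genes were named by size of difference, by gene list, as the 5 marker genes, or for the smallest differences, from probesets with 1 gene name. The rule was met by 86 genes. Not all of these are described here. The members and the lists were chosen with earlier results of these data known. Promoters are from RefSeq (GRCm38.p6). Alternatives were another scaling, other filters, variance models, array weights, fewer arrays and a test against a 2-fold minimum.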

Additional observations from a re-analysis of the deposited data

How the results depend on the processing

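No paired analysis was possible because the labels give no replicate numbers shared between groups. Of 173 counts recomputed under alternatives, 165 stayed within 1.5 times. With the stricter filter (75th percentile of the table), which tests fewer probesets, 2692 were called higher in TAMs, the 2-fold counts were 1509 and 1987, and the difference between the contrasts had 2 calls. With limma's treat test the 2-fold counts were 1453 higher in TAMs and 1417 in tumor cells, with 21 named ones in tumor cells. With an intensity trend and robust fitting the difference between the contrasts had 11 calls; the cause was not tested. Fitting the 5 WT arrays alone, which does not borrow the spread of the b3KOM arrays, called 10672 probesets, and array weights 12098. Leaving out 1 array at a time gave 8878 to 11335 calls, 3321 to 4192 higher in TAMs and 5528 to 7143 in tumor cells, 2-fold counts of 2196 to 2329 and 2879 to 3052, 123 to 133 named calls (69 to 72 and 31 to 35 at 2-fold), 8634 to 11282 b3KOM calls and 0 for the difference between the contrasts. Of the 75 called genes named by the rule, 0 reversed and 70 kept their call under every alternative run; Ctla2b and Slc30a1 lost it without the first WT tumor cell array, Glycam1 and F2rl3 without the second, and Taf1d without the first and with cyclic loess. Of the 11 not called, Trim13 gained a call in 4 alternatives and Uxt with cyclic loess, and 8 reversed. With cyclic loess Gbp2 was 0.27, Uxt 0.30, Phf15 0.11, Zfp341 0.12 and Zfp658 0.052, and with array weights Tgtp1 was -0.11. Leaving out 1 array at a time gave -0.010 to 0.29 for Cd1d1, -0.020 to 0.11 for Fbxw17, -0.36 to 0.32 for Tgtp1, -0.27 to 0.15 for Gbp2, -0.078 to 0.057 for Uxt, -0.073 to 0.021 for Phf15 and -0.15 to 0.001 for Zfp658. Probesets near the table median have only a bound on the dim side, and the 79 named probesets not tested have no call.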
